A study of Mus musculus with 7 samples.

Results

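Genes that build and process the matrix of enamel and dentin were followed in mouse nasal tissue exposed to diesel exhaust particles (DEP): ameloblastin (Ambn), amelogenin (Amelx), enamelin (Enam), Odam, dentin sialophosphoprotein (Dspp), amelotin (Amtn), Mmp20 and Klk4. These 8 genes were selected on the log2 ratios of DEP over control on these arrays, which shifted in opposite directions at the 2 exposure times, so their ratios and levels are given as a description, without a test. Probes were assigned to the genes through the accession that the array design lists for each probe. The 8 genes had 9 probes, 2 of them for Dspp, of 39429 probes and 32095 gene or probe names on the array. All 9 probes passed the filter on low signals, which asked for 3 or more of the 7 arrays with DEP or control RNA well above background and left 25162 probes with 20664 names.

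The RNA came from nasal tissue of BALB/c females, and the animals entered the study at an age of 6 weeks. The piece of tissue held the septum and the turbinates, and its borders were set by landmarks of the palate and the molars. The exposed mice inhaled nebulized DEP in saline at 100 µg/m3 for 1 hour a day on 5 days a week, during 4 weeks or 8 weeks, and control mice inhaled saline in the same way, as the study's methods state for 4 weeks. On every array, DEP RNA carried Cy5 and control RNA carried Cy3, with no dye swap, and 4 arrays covered 4 weeks and 3 arrays covered 8 weeks. The arrays are labelled as biological replicates, but the number of mice behind each RNA is not given in the sources used here. Each time had a slide of its own, which means that a slide effect and an effect of time cannot be told apart in any value that sets 4 weeks against 8 weeks.

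Enamel is laid down by ameloblasts, epithelial cells that secrete a matrix of amelogenin, ameloblastin and enamelin. The protease MMP20 trims this matrix while it is being secreted, and KLK4 degrades what is left as the mineral hardens. Odam and Amtn are made by ameloblasts of the later, maturation stage and by the junctional epithelium that seals the gum to the tooth. Dspp is made by odontoblasts, the cells on the other side of the enamel border, and is cleaved into the main noncollagenous proteins of dentin. The incisors of mice grow throughout life, so that these genes stay in use in the adult, and the upper incisor is embedded in the bone beside the nasal cavity.

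On every array of 4 weeks the brightest probe of each of the 8 genes read lower in DEP than in control RNA, and on every array of 8 weeks it read higher. Across the array, 6.19% of the 20664 names had this pattern and 7.36% had the opposite pattern. At 4 weeks Mmp20 was well above background in neither channel, and Amtn only in control RNA of 1 array. Both passed the filter mainly through the 8-week arrays, so their side of 0 at 4 weeks is uncertain. The median of the log2 ratios of DEP over control over the 8 genes was -1.25 at 4 weeks and 0.96 at 8 weeks, while the median over all names was 0.00 and 0.01. Over the 5 genes with both channels well above background on all arrays it was -1.47 and 0.92. Within the arrays of 4 weeks the median over the 8 genes was -1.39, -1.20, -1.18 and -1.30, and within those of 8 weeks it was 1.14, 1.02 and 0.76. All 7 medians lay on the side of 0 of their time, and replicate 3 of 8 weeks was the nearest to it. In bulk tissue a lower level can come from fewer cells that make a transcript or from less transcript per cell, which cannot be told apart here.

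**Figure D1:**
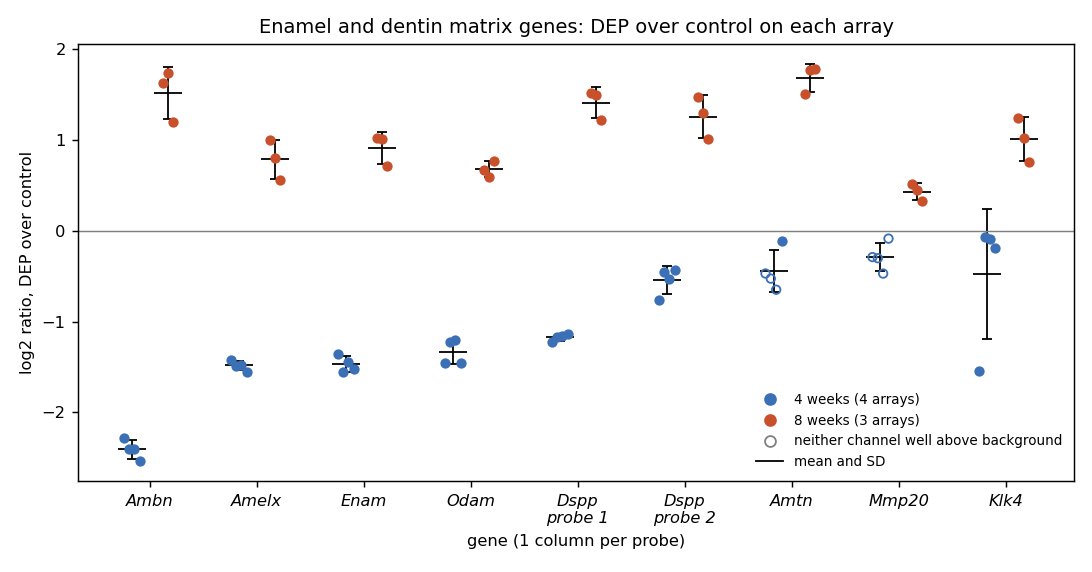
Log2 ratio of DEP over control on each array, 1 column per probe, blue for the 4 arrays of 4 weeks and orange for the 3 arrays of 8 weeks. Filled points had at least 1 channel well above background, bars give the mean and SD, and probe 1 of Dspp is the brighter. Every blue point is below 0 and every orange point above it, with replicate 1 of 4 weeks apart from the others for Klk4.

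The 250 bases before the annotated start are shown for 5 of the 8 genes, from RefSeq on build GRCm38.p6. Promoter entries were at hand for 7 of the 8 genes. The motifs searched on both strands were the CCAAT box, a longer form of it read from the opposite strand (TGATTGG), the TATA box (TATAAA), the GC box (GGGCGG) and the core of the Runt-factor site (TGTGGT). The longer form was found in exactly these 5 windows and is set in capitals, and it was picked after the sequences were seen.
Ambn, chr5:88455741-88455990, plus strand: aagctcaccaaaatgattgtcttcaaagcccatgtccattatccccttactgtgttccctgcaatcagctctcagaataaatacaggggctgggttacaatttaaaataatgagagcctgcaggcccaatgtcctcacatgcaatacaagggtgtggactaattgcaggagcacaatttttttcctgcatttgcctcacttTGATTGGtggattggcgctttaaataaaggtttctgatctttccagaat
Amelx, chrX:169187210-169187459, minus strand: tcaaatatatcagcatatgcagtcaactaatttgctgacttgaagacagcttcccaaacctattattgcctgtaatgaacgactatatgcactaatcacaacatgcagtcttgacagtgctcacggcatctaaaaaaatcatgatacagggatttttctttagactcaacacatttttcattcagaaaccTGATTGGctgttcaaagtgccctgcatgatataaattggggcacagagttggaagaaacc
Enam, chr5:88487725-88487974, plus strand: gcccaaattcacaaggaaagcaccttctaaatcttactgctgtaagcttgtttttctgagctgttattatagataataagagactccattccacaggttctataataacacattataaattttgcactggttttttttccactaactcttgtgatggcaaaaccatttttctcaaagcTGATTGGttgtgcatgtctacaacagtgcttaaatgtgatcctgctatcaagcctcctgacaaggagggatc
Odam, chr5:87884760-87885009, plus strand: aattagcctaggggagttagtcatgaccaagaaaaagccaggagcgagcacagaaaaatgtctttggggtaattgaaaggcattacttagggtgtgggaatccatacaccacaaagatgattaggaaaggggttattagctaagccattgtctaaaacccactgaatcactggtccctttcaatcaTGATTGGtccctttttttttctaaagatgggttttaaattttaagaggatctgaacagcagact
Amtn, chr5:88375858-88376107, plus strand: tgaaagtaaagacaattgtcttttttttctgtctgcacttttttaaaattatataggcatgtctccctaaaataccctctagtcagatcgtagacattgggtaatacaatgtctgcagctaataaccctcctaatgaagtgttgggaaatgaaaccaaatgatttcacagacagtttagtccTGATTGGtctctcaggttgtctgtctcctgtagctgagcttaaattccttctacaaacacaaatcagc

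In all 5 windows TGATTGG lay on the coding strand and close to the start: its first base was 49 bases before the start in Ambn, 60 in Amelx, 64 in Odam, 68 in Amtn and 72 in Enam. Of 32851 promoter windows of the same length, 7.23% held TGATTGG on either strand, and 4.58% held it within the last 100 bases. CCAAT alone was found in 33.8% of all windows and, among those of the matrix genes, in the same 5. TATAAA was present in the windows of Amelx, Enam and Mmp20, against 12.4% of all windows. The windows of Mmp20 and Klk4 held neither CCAAT nor TGATTGG. The GC box was in none of the 7, against 32.7% of all windows, and the Runt-factor core was in that of Odam, against 14.0%. These are matches of letters, and binding at them was not measured. TGATTGG was picked from these same windows, and Ambn, Enam, Odam and Amtn lie in a run of genes on chromosome 5. The shares of all windows are therefore a description and no test.

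Ameloblastin gave the widest change of the group. For Ambn (probe A_55_P1999463) the log2 ratio was -2.28, -2.41, -2.40 and -2.54 on the arrays of 4 weeks and 1.63, 1.74 and 1.20 on those of 8 weeks. The 4-week values lay close together, and no value came near those of the other time. DEP RNA was thus 5.31-fold lower than control RNA at 4 weeks (mean log2 ratio -2.41 ± 0.11, SD, n = 4) and 2.87-fold higher at 8 weeks (1.52 ± 0.29, n = 3). The difference of 3.93 between the 2 means was the highest of the 20664 names, and the 4-week mean ranked 5th from the bottom.

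The raw signals of Ambn show what the ratio is made of. In the DEP channel the median signal of the spot, before any correction, was 668, 769, 719 and 524 at 4 weeks and 24600, 27046.5 and 18633.5 at 8 weeks. In the control channel it was 4166, 4035, 4362 and 3812 at 4 weeks and 9411, 9886.5 and 10488 at 8 weeks. Control signals were higher on the 8-week slide, and DEP RNA was the dimmest of the 4 groups at 4 weeks and the brightest at 8 weeks.

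Amelogenin, the bulk protein of the young enamel matrix, followed with less amplitude. The log2 ratio of Amelx (A_55_P1993859) was -1.42, -1.49, -1.47 and -1.55 at 4 weeks and 1.00, 0.80 and 0.56 at 8 weeks. The 4-week arrays were close together and the 8-week arrays were more spread, with replicate 3 the lowest. DEP RNA was 2.80-fold lower at 4 weeks (-1.48 ± 0.055) and 1.72-fold higher at 8 weeks (0.79 ± 0.22). Its median signals in the DEP channel were 4308, 5167, 3854 and 3934.5 at 4 weeks and 52914, 52692 and 33562.5 at 8 weeks, against 14335, 14139, 12128.5 and 14117.5 and then 29404.5, 34774 and 27730.5 in the control channel. At 8 weeks the raw signals of the channels overlapped, since replicate 3 of DEP read below replicate 2 of control, while within each array the DEP channel was the brighter.

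Enamelin, the largest of the enamel matrix proteins, behaved like amelogenin. The log2 ratio of Enam (A_55_P2117247) was -1.36, -1.56, -1.45 and -1.53 at 4 weeks and 1.03, 1.01 and 0.71 at 8 weeks. The groups did not overlap, and replicate 3 of 8 weeks was again the lowest. DEP RNA was 2.77-fold lower at 4 weeks (-1.47 ± 0.089) and 1.89-fold higher at 8 weeks (0.92 ± 0.18). The DEP spots of 4 weeks were dim, with median signals of 112, 116.5, 115 and 106 over local backgrounds of 66 to 72, so the size of the 4-week ratio depended on the background correction. It was -2.27 with the processed signals of the scanner software and -1.13 when the background was fitted on all spots, where replicate 2 alone moved from -1.56 to -0.23.

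Odam had the steadiest ratio of the group at 8 weeks. Its log2 ratio (A_55_P1963758) was -1.45, -1.22, -1.21 and -1.45 at 4 weeks and 0.67, 0.59 and 0.77 at 8 weeks. Replicate 3 of 8 weeks, the lowest array for Ambn, Amelx and Enam, was the highest here. DEP RNA was 2.52-fold lower at 4 weeks (-1.33 ± 0.14) and 1.60-fold higher at 8 weeks (0.68 ± 0.088). The 4-week ratio of Odam also depended on the background correction. It was -1.67 with processed signals and -1.10 with the background fitted on all spots, where replicate 2 moved from -1.22 to -0.32. With each array centred on its median in place of loess, the 8-week value was 0.35 for Odam and 0.58 for Enam.

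Amelotin was hardly present at 4 weeks. The DEP channel of Amtn (A_52_P63361) was well above background on 0 of 4 arrays at 4 weeks and the control channel on 1 of 4, and the log2 ratios there were -0.47, -0.53, -0.65 and -0.11. No fold is given for that time, since control RNA was measured above background on that 1 array only, replicate 4, where the ratio was the nearest to 0. At 8 weeks both channels were well above background on all 3 arrays, with log2 ratios of 1.50, 1.77 and 1.78. This 3.21-fold difference (1.68 ± 0.16, n = 3) was the highest 8-week value of the group, and Amtn passed the filter mainly through these arrays.

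Dentin sialophosphoprotein was read by 2 probes. The brighter (A_55_P2019590) gave log2 ratios of -1.23, -1.17, -1.16 and -1.14 at 4 weeks, the tightest set of the group, and 1.52, 1.50 and 1.22 at 8 weeks. The dimmer (A_55_P2166132) gave -0.76, -0.46, -0.53 and -0.43 at 4 weeks and 1.48, 1.29 and 1.01 at 8 weeks. Both probes changed sides between the times, but at 4 weeks the dimmer probe was nearer to 0, and its DEP channel was well above background on 3 of 4 arrays only. By the brighter probe DEP RNA was 2.25-fold lower at 4 weeks (-1.17 ± 0.039) and 2.66-fold higher at 8 weeks (1.41 ± 0.17).

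The proteases that process the enamel matrix were Mmp20 and Klk4. Mmp20 (A_51_P425510) was well above background on 0 of 4 arrays in either channel at 4 weeks, so that no fold is given, and its log2 ratios were -0.29, -0.30, -0.47 and -0.09. At 8 weeks its DEP channel was well above background on 3 of 3 arrays and its control channel on 2 of 3, with log2 ratios of 0.52, 0.45 and 0.33 (0.43 ± 0.096). Mmp20 thus passed the filter through the 8-week arrays alone, and its 8-week ratio was 1.19 with the processed signals, which lack the offset added here to damp dim spots.

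Klk4 was the member in which the arrays disagreed. Its log2 ratio (A_55_P1977066) was -1.54, -0.07, -0.09 and -0.19 at 4 weeks and 1.25, 1.03 and 0.76 at 8 weeks. The control spot of replicate 1 at 4 weeks had a median signal of 520, against 111, 115 and 121 on the others, while the DEP spots read 148, 127, 114.5 and 111. The 4-week mean of -0.47 ± 0.72 therefore rested on that array, and without it the mean was -0.12. At 8 weeks DEP RNA was 2.01-fold higher (1.01 ± 0.25).

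The channels were also set side by side, after the arrays had been brought to a common average intensity. In this order, from low to high, DEP at 4 weeks, control at 4 weeks, control at 8 weeks and DEP at 8 weeks followed each other without overlap for 7 of the 8 genes, Klk4 being the exception. Over all 20664 names 0.363% had this order. Ambn, Amelx, Enam, Odam and Dspp were well above background in all 4 groups, whereas Amtn and Mmp20 were not at 4 weeks, where the order of their channels is uncertain. On median signals less local background, without normalization, 4 genes kept the order (Ambn, Odam, Dspp and Amtn), since the 8-week channels of Amelx, Enam and Mmp20 then overlapped.

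Control RNA of 8 weeks was above control RNA of 4 weeks for all 8 genes, as it was for 26.9% of all names. The control level was 2.82-fold higher at 8 weeks for Ambn, 2.55-fold for Amelx, 3.30-fold for Enam, 2.36-fold for Odam, 3.20-fold for Dspp and 3.14-fold for Klk4. DEP RNA changed more: its level was 43.0-fold higher at 8 weeks than at 4 weeks for Ambn, 12.3-fold for Amelx, 17.3-fold for Enam, 9.53-fold for Odam, 19.2-fold for Dspp and 8.79-fold for Klk4. DEP RNA of 8 weeks was above that of 4 weeks without overlap for all 8 genes, against 25.5% of all names. Amtn and Mmp20 moved the same way from levels at background. These folds stay within a dye but cross slides, so that slide and time cannot be told apart in them. Within an array it is DEP and dye that cannot be told apart, since no dyes were swapped.

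**Figure D2:**
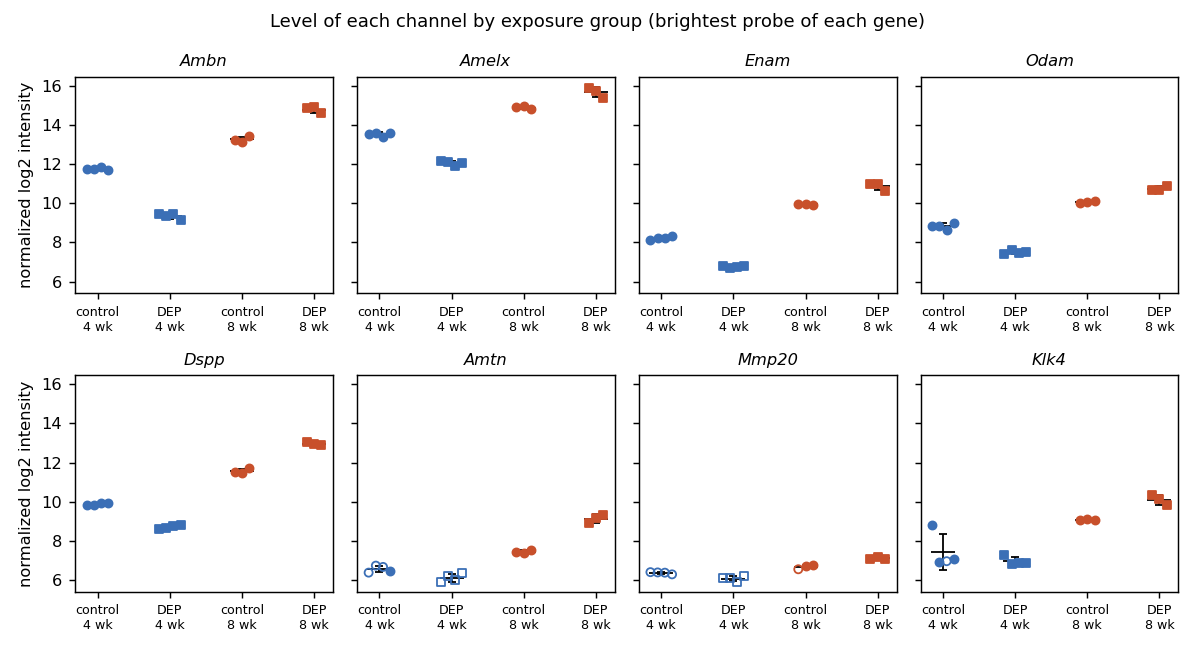
Normalized log2 intensity of the brightest probe of each gene in control (circles) and DEP (squares) RNA at 4 weeks (blue) and 8 weeks (orange), with the mean and SD, and open symbols where the channel was not well above background. Levels step up from DEP at 4 weeks through the controls to DEP at 8 weeks in 7 of 8 panels.

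Ambn, Enam, Amtn and Odam lie on chromosome 5 within a run of genes, and the array read the genes between them. In RefSeq order the run is Odam, BC037156, Csn3, Cabs1, Smr3a, Smr2, Gm7714, Prol1, Amtn, Ambn, Enam, with Prr27 before it and Jchain after it. Of these 9 other protein-coding genes, chosen for their position after their values were seen, 4 were tested. BC037156 fell at both times (log2 ratio -2.58 at 4 weeks, adjusted p = 1.7e-06, and -1.66 at 8 weeks, adjusted p = 1.1e-05, limma with Benjamini-Hochberg adjustment). Cabs1 rose at both (0.35 and 0.90, adjusted p = 0.0025 and 4.3e-05). Smr3a, a gene of salivary glands, was at -0.07 at 4 weeks (adjusted p = 0.42) and fell by 4.45 on the log2 scale at 8 weeks (adjusted p = 4.7e-08). Jchain, which joins the chains of secreted antibodies, fell at 4 weeks (-0.24, adjusted p = 0.0084) and rose at 8 weeks (0.83, adjusted p = 3.5e-05), with a smaller span than its neighbour Enam.

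**Figure D3:**
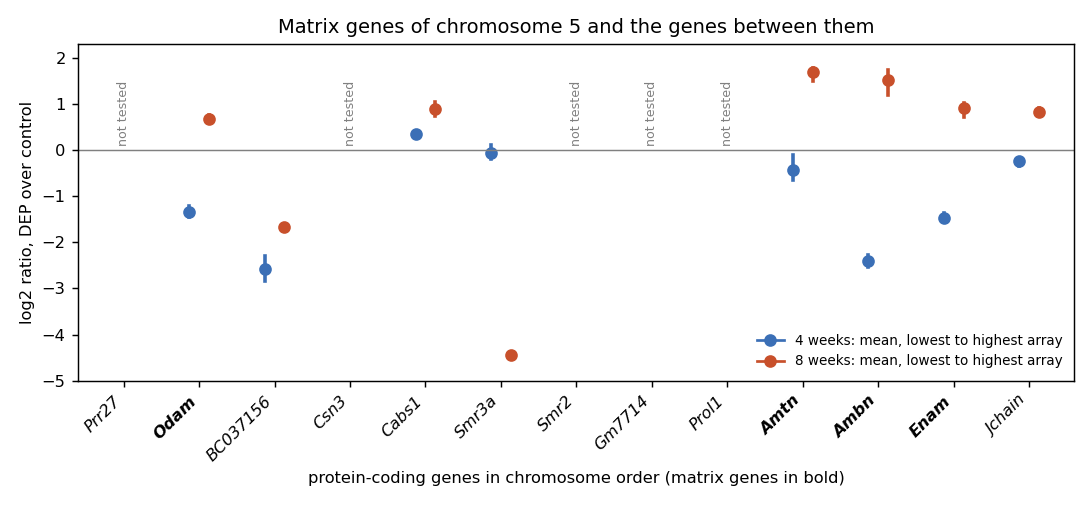
Mean log2 ratio of DEP over control with the lowest and highest array, for the matrix genes (bold) and the other protein-coding genes of the chromosome 5 run, in chromosome order and not to scale. The 4 matrix genes lie below 0 at 4 weeks and above 0 at 8 weeks, while BC037156, Cabs1 and Smr3a do not share this pattern.

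Other genes of the enamel organ were read from a list. Of 15 listed genes that ameloblasts and their neighbours use for transport, adhesion and transcription, 13 were tested. At 4 weeks 1 rose and 2 fell, where 21.6% of all names rose and 16.5% fell. The median of the list was -0.04 against 0.00 over all names. The pseudokinase Fam20a fell (-0.50, adjusted p = 2.3e-04), as did Fam83h (-0.32, adjusted p = 0.014), while the transcription factor Dlx3 rose (0.26, adjusted p = 0.0037), a call that was lost with median centring.

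At 8 weeks 3 genes of this list rose and 1 fell, where 20.3% of all names rose and 17.0% fell, and the median was 0.15 against 0.01. The homeobox genes Msx2 (0.92, adjusted p = 9.9e-05) and Dlx3 (0.82, adjusted p = 2.1e-05) rose the most. Sp6, a factor needed for ameloblasts, rose (0.34, adjusted p = 0.013), and the integrin Itgb6 fell (-0.24, adjusted p = 0.020). The calls of Sp6 and Itgb6 were lost without replicate 1 of 8 weeks, and that of Itgb6 also without replicate 3. No gene of the list reached a 2-fold change at either time. The difference between the times, 8 weeks minus 4 weeks, passed the test upward for 4 of the 13 and downward for 1, where 14.9% of all names passed upward and 16.1% downward.

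Genes of odontoblasts and bone mostly fell at 4 weeks and rose at 8 weeks where they passed the test. Of 17 listed, 15 were tested. At 4 weeks 1 rose and 7 fell (median -0.24), beside 21.6% and 16.5% of all names, and at 8 weeks 7 rose and 1 fell (median 0.20), beside 20.3% and 17.0%. The difference between the times passed upward for 9 of the 15, beside 14.9% of all names, and the remaining 6 did not pass. Phex, a peptidase of mineralizing cells, fell at 4 weeks (-0.67, adjusted p = 1.6e-04) and rose at 8 weeks (0.83, adjusted p = 9.3e-05). Osteocalcin (Bglap) went from -0.56 (adjusted p = 4.1e-04) to 0.55 (adjusted p = 7.6e-04), and the collagen chain Col1a1 from -0.53 (adjusted p = 9.5e-04) to 0.67 (adjusted p = 5.7e-04). Osteopontin (Spp1) fell at both times (-0.57 and -0.56, adjusted p = 4.5e-04 and 9.1e-04). Bone sialoprotein (Ibsp) fell at 4 weeks (-0.56, adjusted p = 2.8e-04) and was at 0.20 at 8 weeks (adjusted p = 0.043). The 8-week call was lost under 11 of 15 alternatives, and with median centring the value was below 0 (-0.12). Dmp1, a matrix protein of odontoblasts and osteocytes, did not pass the test at either time (-0.09 and 0.18). Other calls counted above were lost under some alternatives. At 4 weeks these were Runx2, the 1 gene that rose (10 of 14 alternatives, with the sign reversed under 2), and Col1a2 (6 of 15). At 8 weeks they were the rises of Alpl (4 of 15), Bglap2 (3 of 15) and Panx3 (1 of 14).

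A further list held 8 genes of the secretory calcium-binding phosphoprotein family, to which most of the enamel matrix genes belong. It left out genes that stand in the bone list and so does not cover the whole family. Of these 8 genes, 7 were on the array and 2 were tested. Smr3a, given above, was called at 8 weeks and Csn1s2b at neither time (-0.14 and -0.03). The osteoclast list gave 4 genes that fell of 6 at 4 weeks: tartrate-resistant phosphatase Acp5 (-0.67, adjusted p = 5.1e-05), cathepsin K (Ctsk, -0.57, adjusted p = 3.7e-04), Mmp9 (-0.44, adjusted p = 8.8e-04) and Atp6v0d2 (-0.22, adjusted p = 0.020, lost under 5 of 14 alternatives: without replicate 3 or 4 of 4 weeks, with normexp fitted on all spots, with processed signals and with the mean of probes). Over all names 21.6% rose and 16.5% fell at 4 weeks, and 20.3% and 17.0% at 8 weeks. At 8 weeks 2 of the 6 rose and 2 fell. Mmp9 (-0.37, adjusted p = 0.0038) and Acp5 (-0.31, adjusted p = 0.0039) fell. Ctsk rose (0.39, adjusted p = 0.0041), a call lost with median centring. Ocstamp, needed for osteoclast fusion, rose by more than 2-fold (1.04, adjusted p = 1.1e-04).

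**Figure D4:**
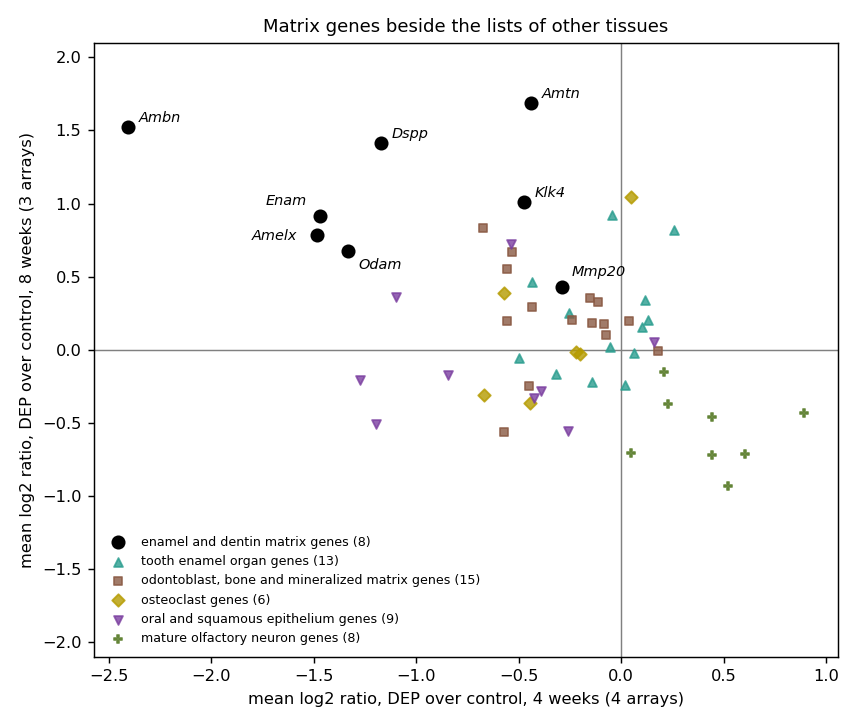
Mean log2 ratio of DEP over control at 4 weeks (x axis, 4 arrays) against 8 weeks (y axis, 3 arrays) for the 8 matrix genes (black) and the tested genes of 5 lists, numbers in brackets. The matrix genes lie in the upper left, lower at 4 weeks and higher at 8 weeks. Some genes of the bone, squamous, osteoclast and enamel organ lists lie in the same corner, and olfactory neuron genes lie in the lower right.

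Markers of other tissues moved with the exposure groups as well, and their part in the values of the matrix genes was not tested. The counts below stand beside 21.6% of all names that rose and 16.5% that fell at 4 weeks. At 8 weeks these shares were 20.3% and 17.0%. Of 10 listed genes of oral and squamous epithelium, 9 were tested, and at 4 weeks 8 fell (median -0.54), among them the keratins Krt13 (-1.27, adjusted p = 1.3e-05) and Krt4 (-1.19, adjusted p = 5.9e-05) and Krtdap (-1.10, adjusted p = 7.9e-06). At 8 weeks 2 rose and 4 fell (median -0.21): Krt14, a keratin of the basal layer, rose (0.73, adjusted p = 3.5e-05), as did Krtdap (0.36, adjusted p = 0.0027, lost with median centring), and Krt6a (-0.55, adjusted p = 0.0026) and Krt4 (-0.51, adjusted p = 0.0064, lost with normexp fitted on all spots) fell. The olfactory neuron list moved opposite to the matrix genes at both times. Of its 8 genes, 6 rose at 4 weeks (median 0.44) and the other two, Adcy3 (0.05) and Ano2 (0.21), did not pass, and 7 fell at 8 weeks (median -0.58), all but Ano2 (-0.15). The difference between the times passed downward for 7 of these 8 genes and upward for 5 of the 9 squamous genes. Of all names 16.1% passed downward and 14.9% upward. Among the calls at a single time, the fall of Adcy3 at 8 weeks (-0.71) was lost under 5 of 15 alternatives. These included leaving out any 1 of the 8-week arrays. The fall of Krt6a at 4 weeks was lost under 6 of 15, and the 4-week rises of Cnga2 and Cnga4 under 1 of 15 each.

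Among the olfactory genes, the marker protein gene Omp rose at 4 weeks (0.89, adjusted p = 3.9e-05) and fell at 8 weeks (-0.43, adjusted p = 0.0024). The G-protein subunits of odour signalling did likewise, Gnal with 0.61 and -0.72 (adjusted p = 2.9e-04 and 2.1e-04) and Gng13 with 0.52 and -0.94 (adjusted p = 0.0016 and 1.7e-04). Stoml3 was at 0.44 and -0.72 (adjusted p = 7.9e-04 and 1.2e-04), and the channel subunit Cnga2 at -0.46 at 8 weeks (adjusted p = 0.020, lost without replicate 1 or 2 of 8 weeks).

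The summed normalized intensity over each list is given in steps of 1000 intensity units, as the range over the arrays. Over the 8 matrix genes it was 5.56 to 6.18 in DEP and 16.6 to 17.9 in control RNA at 4 weeks, and 80.7 to 105 in DEP and 45.9 to 46.7 in control RNA at 8 weeks, most of it from Amelx and Ambn. Over the olfactory list it was 149 to 163 in DEP and 82.0 to 97.0 in control RNA at 4 weeks, and 97.0 to 101 in DEP and 135 to 152 in control RNA at 8 weeks. For DEP against control the 2 lists ran in opposite directions at both times. From 4 weeks to 8 weeks, across slides, both sums rose in control RNA. In DEP RNA the matrix sum rose and the olfactory sum fell. Over the bone list the sum was 61.6 to 70.0 and 75.9 to 85.7 at 4 weeks and 98.9 to 111 and 82.8 to 83.4 at 8 weeks, DEP first. Over the squamous list it was 20.3 to 22.8 and 24.8 to 27.2 at 4 weeks and 22.8 to 27.5 and 22.7 to 25.0 at 8 weeks. Every olfactory gene was well above background on at least 1 array of each group, and of the 8 matrix genes 2 were at background in DEP RNA of 4 weeks.

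The remaining lists covered muscle, motile cilia and glands. Beside them, 21.6% of all names rose and 16.5% fell at 4 weeks, and 20.3% and 17.0% at 8 weeks. The 4-week counts of the muscle list were near these shares. Of 8 skeletal muscle genes, 2 rose and 2 fell at 4 weeks: Myh1 (0.65, adjusted p = 1.2e-04), Tnnt3 (0.14, adjusted p = 0.032), Mylpf (-0.62, adjusted p = 0.028) and Myh4 (-0.27, adjusted p = 0.0065). The call of Tnnt3 was lost under 9 of 15 alternatives, and Mylpf was at -0.35 without replicate 2 of 4 weeks and not called when the 4-week arrays were fitted alone. At 8 weeks 1 muscle gene rose and 5 fell, Ckm the most (-1.32, adjusted p = 9.6e-04). Of 6 genes of motile cilia, 4 rose at 4 weeks (Dnai1 0.41, Tekt1 0.41, Rsph1 0.40 and Dynlrb2 0.30, highest adjusted p = 0.0044, that of Dynlrb2, whose call was lost with median centring) and 2 at 8 weeks (Dnah5 0.66 and Foxj1 0.47, adjusted p = 8.1e-04 and 0.020, the latter lost without any 1 of the 8-week arrays and with median centring). Of 8 gland genes, 3 rose and 4 fell at 4 weeks, with Lpo (2.98, adjusted p = 1.7e-07) and Pip (2.08, adjusted p = 4.5e-06) above 2-fold. At 8 weeks 3 rose and 5 fell, the latter all above 2-fold: Amy1 (-4.90), Bpifb2 (-2.25), Dcpp1 (-2.00), Dcpp3 (-1.70) and Dcpp2 (-1.13), with a highest adjusted p of 4.4e-06. The gland sum was 120 to 127 in DEP and 94.1 to 108 in control RNA at 4 weeks, and 21.9 to 22.2 in DEP and 46.8 to 51.2 in control RNA at 8 weeks.

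Genes whose log2 ratios ran most like the median of the 8 matrix genes were sought over the 7 arrays among 1252 other names whose SD was at least 0.5 times its own. The 10 most alike had a Pearson correlation of 0.995 to 0.999 with it. The arrays fall into the 2 times, so this likeness is mostly the likeness of a step and takes no account of which side of 0 it starts from. Among them were Spon2 (-1.43 at 4 weeks, 0.19 at 8 weeks), Krtdap, the hair follicle keratin Krt71 (-0.29, 2.43), the lipopolysaccharide receptor Cd14 (-1.39, 0.14) and Igfbp2 (-0.49, 0.92). The secretoglobin Scgb1b20 was higher in DEP RNA at both times (1.86, 2.98) and belongs to a family of near-identical copies, so its reading is uncertain. Tenascin N (Tnn), a matrix protein of forming bone, was at -0.79 and 0.75. Probes without a gene name, A_55_P2144090 and A_55_P2148935, were also among the 10.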

How the data were processed

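Nasal tissue RNA of DEP and control mice was hybridised on 2-colour Agilent mouse arrays, 4 arrays at 4 weeks and 3 at 8 weeks. The authors deposited scanner output of Feature Extraction 10.10.1.1 (version per the submitters' processing notes), whose median signals are spot intensity values as scanned. The deposited processed signals are intensity after the software's own background subtraction and dye normalization, and the deposited ratio is their log10 (Cy5 over Cy3), which was not used as a main value. The GeneSpring normalization named by the study's methods is not part of the files.

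In R 4.3.3 with limma 3.58.1, normexp with an offset of 50 was applied to median signals and median backgrounds. Its parameters were fitted without spots the software marked as background outliers, since 9 such spots distorted the fit on replicate 2 of 4 weeks. Log2 ratios were normalized by loess within arrays, non-uniform spots were left out, and spots of a probe were averaged. Channel levels followed Aquantile scaling between arrays. A probe was tested when DEP or control RNA was well above background on 3 or more of 7 arrays, and a gene was read by its brightest tested probe. Each time had its own mean in 1 limma fit over all 25162 tested probes, with eBayes and Benjamini-Hochberg adjustment, and an adjusted p of at most 0.05 was a call. A 2-fold change is a log2 ratio of at least 1 in size. The pipeline was run on simulated data with changes placed on bright probes only and without dye or slide effects. That run does not cover dim probes or the dye.

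The genes and the 9 lists (86 genes, 84 on the array, 75 tested) were chosen with earlier results of these data known. Named are the 8 matrix genes, the called list genes above 2-fold or otherwise the 4 with the largest change, the 10 genes most like the matrix genes (1 of them is not reported here), and chromosome 5 neighbours. Of 39429 probes 28330 were named through RefSeq accessions. Per array, the DEP channel had 18601 to 25069 probes well above background, the control channel 16985 to 26927, and 0 spots were saturated. Log2 ratios correlated between arrays of 4 weeks at 0.44 to 0.49, of 8 weeks at 0.71 to 0.88 and across times at 0.087 to 0.29. The number of arrays limits the precision. Alternatives were another background fit, offset, normalization and filter, processed signals, the mean of probes, the methods' t-test, a replicate block and each array left out. Promoter windows were read with Python 3.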

Additional observations from a re-analysis of the deposited data

Results flagged for a closer look

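At 4 weeks, where a group has 4 arrays, 7 of 63 probes and genes examined had 1 array apart from the rest relative to the spread of the group. Chance alone sets off about 1 in 20 such groups. Among the matrix genes this was Klk4 on replicate 1 (log2 ratio -1.54). The others were Mylpf on replicate 2 (-1.42), Myh4 (-0.11), Dynlrb2 (0.13) and Pip (1.88) on replicate 1, Bpifb2 on replicate 3 (-0.15) and Cabs1 on replicate 2 (0.38). The distance itself can be small: all 4-week arrays of Cabs1 lay between 0.34 and 0.38.

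The matrix genes lay below 0 on every array of 4 weeks and above 0 on every array of 8 weeks, and the differences of the means, 8 weeks minus 4 weeks on the log2 scale, were not tested: Ambn (3.93), Amelx (2.27), Enam (2.39), Odam (2.01), Dspp (2.59), Amtn (2.12), Mmp20 (0.72) and Klk4 (1.48). The values of Amtn and Mmp20 include 4-week channels at background.

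The same difference passed the test (adjusted p of at most 0.05, limma) for the other genes given below, beside 14.9% of all names upward and 16.1% downward. It did not pass for some genes named above, among them Fam83h, Sp6, Spp1, Dmp1, Mmp9, Atp6v0d2, Krt6a, Dnai1 and Mylpf. In the enamel organ list these were Fam20a (0.44), Dlx3 (0.56), Msx2 (0.97) and Itgb6 (-0.26). Among genes of bone and odontoblasts they were Phex (1.50), Bglap (1.11), Ibsp (0.75) and Col1a1 (1.20), with Smr3a (-4.38) of the phosphoprotein family, and among osteoclast genes Acp5 (0.36), Ctsk (0.96) and Ocstamp (0.99). In the squamous list the differences were Krt13 (1.06), Krt4 (0.69), Krtdap (1.46) and Krt14 (1.27). In the olfactory list they were Omp (-1.32), Gnal (-1.32), Gng13 (-1.46), Stoml3 (-1.17), Cnga2 (-0.90) and Ano2 (-0.36). Muscle gave Myh1 (-0.59), Myh4 (1.09), Tnnt3 (-0.39) and Ckm (-1.30), and motile cilia gave Tekt1 (-0.33), Rsph1 (-0.33), Dynlrb2 (-0.40), Dnah5 (0.61) and Foxj1 (0.56). Gland genes gave Lpo (-2.70), Pip (-1.74), Amy1 (-4.83), Bpifb2 (-2.03), Dcpp1 (-1.49), Dcpp2 (-0.84) and Dcpp3 (-1.22). The genes most like the matrix genes gave Spon2 (1.61), Krt71 (2.72), Cd14 (1.53), Igfbp2 (1.41), Scgb1b20 (1.12) and Tnn (1.54), and the chromosome 5 neighbours BC037156 (0.92), Cabs1 (0.55) and Jchain (1.07).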

How the results depend on the processing

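No value of a matrix gene changed sign under the alternatives, of 351 computed. Many of these values could not change, however. A gene's mean stays the same without an array of the other time, with its time fitted alone and under the other filters. The mean of probes could change Dspp only. The genes were also chosen for opposite shifts, so this count is no test of their signs. The median log2 ratio of the 8 genes at 4 weeks (-1.25) was -1.07 with normexp fitted on all spots, -1.49 with processed signals, -1.38 with an offset of 10, -1.47 when both channels had to be above background on all arrays (5 genes left) and -1.10 with the mean of probes. At 8 weeks (0.96) it was 0.72 with median centring, and the difference (2.20) was 2.61 with processed signals and 2.48 with an offset of 10. Leaving out 1 array gave -1.28 to -1.22 at 4 weeks, 0.88 to 1.08 at 8 weeks and 2.16 to 2.24 for the difference. The order of the 4 RNA groups held in 4 genes, not 7, without normalization, an alternative chosen after seeing the data.

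Of the 75 list genes tested, 44 were called at 4 weeks (17 rose, 27 fell), 46 at 8 weeks (20 rose, 26 fell) and 49 for the difference. Over all names 21.6% rose and 16.5% fell at 4 weeks, and 20.3% and 17.0% at 8 weeks. For the difference 14.9% passed upward and 16.1% downward. With 1 array left out the counts were 39 to 46, 37 to 49 and 42 to 52. The methods' t-test, at its own p and 2-fold threshold, called 5 at 4 weeks and 7 at 8 weeks (1 rose, 6 fell). After Benjamini-Hochberg adjustment it called 35 at 4 weeks (15 rose, 20 fell) and 6 at 8 weeks (0 rose, 6 fell). All list genes called as risen at 8 weeks in the main fit were thus lost under the adjusted t-test. The losses named above for single genes do not include this t-test. With median centring the median log2 ratio of all tested probes was -0.14 to -0.09 on the 8-week arrays, where loess left it at 0.00, and the 8-week split became 13 that rose and 36 that fell. With processed signals that median was 0.07 to 0.16 on the 4-week arrays.

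Replicate numbers did not pair the arrays of the 2 times: the deviations of same-numbered arrays from their time's mean correlated at -0.0077, -0.0061 and 0.014. With the replicate block the median difference of the matrix genes was 2.24 and 35 list genes were called for the difference. Signals near background limit Enam at 4 weeks and Amtn and Mmp20, whose 4-week ratios were -1.55 and -1.18 with processed signals. The 4-week ratio of Odam also moved with the background correction, between -1.67 and -1.10.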
